A study of Homo sapiens with 6 samples.

Results

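The genes described here are the 35 entries of the deposited expression table that lie on the distal short arm of chromosome 1. They were chosen by position, as table genes on chromosome 1 that start below 60 Mb in GRCh38, out of 995 genes in the whole table. The interval was picked because its table genes were mostly lower in the knockdown cells in an earlier reading of these same libraries, so the direction of the genes is a description here and not a tested result. A further 5 table genes of the interval are not described. Another 23 table genes could not be placed, so genes of the interval among them may be missed. The RNA came from PANC-1, a human pancreatic ductal carcinoma line, in 3 control libraries and 3 libraries of cells carrying a lentiviral short hairpin RNA against STYK1 (shSTYK1), a kinase-like membrane protein whose relation to Wnt/β-catenin signaling the study examined. The study's methods describe puromycin selection and the expansion of resistant clones, and they do not say whether a group was a pool or 1 clone, which vector the control cells carried, or which of the STYK1 hairpins was sequenced. The replicates are named biological replicates there, with no statement that they came from separate transductions.

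The short arm of chromosome 1 is one of the gene-dense stretches of the human genome. Loss of its distal part is a classical finding in neuroblastoma, and loss of the whole arm together with the long arm of chromosome 19 marks oligodendroglioma. Many genes of the distal part have been examined as candidate tumour suppressors. Among the candidates are genes of apoptosis, chromatin remodelling and the p53 response, including the microRNA miR-34a, which p53 induces and which represses cell cycle genes. RNA levels in a bulk library do not show how many copies of a segment a cell has, and fewer cells that express a gene cannot be told apart from less RNA per cell.

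The table holds as many genes as the study reports as changed, up or down, after STYK1 depletion. It therefore appears to be the study's list of changed genes. Each gene is given as a z-score. This is the deviation of its log-transformed value from its own mean over the 6 libraries in units of its own SD. Expression values with 2 decimals were recovered from these scores for 994 genes, including each of the 35 described here. Their unit is not given in the sources used here, and neither is the depth of the libraries, so levels are compared within a gene and not between genes. A difference is given below on the scale of log2(value + 1), which understates the change of genes with low values. The table does not list STYK1 itself, and the depletion of the target is therefore unchecked here. The study shows the efficiency of depletion by its STYK1 hairpins in PANC-1 cells.

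One of the 3 genes that went against the arm is the host transcript of miR-34a, whose 2 mature strands are shown to make clear which microRNA the locus encodes. Capitals mark the seed, bases 2 to 8, which pairs with target RNAs.
hsa-miR-34a-5p: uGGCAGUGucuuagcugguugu
hsa-miR-34a-3p: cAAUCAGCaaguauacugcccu
The sequences are from RefSeq (GRCh38.p14), where the 5p strand lies on the minus strand of chromosome 1 at 9151735 to 9151756 and the 3p strand at 9151693 to 9151714. The hairpin is at 9151668 to 9151777, inside the host gene MIR34AHG. The mature microRNA was not measured by these poly(A)-selected libraries.

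The shSTYK1 cells had less RNA than control cells from 32 of the 35 genes and more from 3. In each of the 35 the highest library of one group lay below the lowest library of the other. Groups that do not overlap were the rule in this table of selected genes, at 93.7% of all 995 genes, with 48.1% lower and 45.5% higher. The filter, 3 or more libraries with a value of 1 or more, was passed by 27 of the 35 genes, which were tested with the rest of the table in limma. Of these, 26 were lower and 1 was higher with a Benjamini-Hochberg adjusted p-value under 0.05, while 44.5% of the 740 genes tested overall were called lower and 51.2% higher, 95.7% in either direction. The table appears to be a list of genes changed between these same groups, so the share called says little. The interval was also picked on this contrast, and nothing is read from these counts. The 8 genes below the filter were ENSG00000250575, MIR34AHG, MASP2, FAM43B, TTC39A, GPX7, GLIS1 and HOOK1, 6 of them lower and 2 higher.

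The median log2 fold change of the 27 tested genes was -1.07, with a range from -2.01 to 0.82, and that of all 740 genes was 0.54. With the 8 genes below the filter included, the median difference was -0.96, beside -0.10 over the 994 genes of the table with recovered values. Most lower genes differed by 2-fold to 4-fold. In the 28 lower genes with a value above 0 in every library, control was 2.04-fold to 7.52-fold above shSTYK1 by the group means, with a median of 2.53-fold and quartiles of 2.36 and 3.38. None of the 28 was below 2-fold, 24 were between 2-fold and 4-fold, and 4 were above. Among the other 375 lower genes of the table with a value above 0 in every library, genes with no position and the undescribed genes of the interval included, the median was 3.43-fold, 205 were between 2-fold and 4-fold (54.7%, against 85.7% in the segment), 151 were above 4-fold and 19 were below 2-fold. These shares were not tested against each other. Small differences can be missing from a list of changed genes, so the lower end of the folds is not a property of the arm alone. The folds also rest on recovered values with an unknown common factor in value + 1.

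Along the arm, the 3 higher genes stood singly among lower ones. From the tip, 6 lower genes were followed by MIR34AHG in p36.22, 6 more by CDA in p36.12, 15 by TTC39A in p32.3, and 5 lower genes reached to the limit of the interval. Region p36 held 20 of the 35 genes, of which 18 were lower, with a median log2 fold change of -1.04 in the 16 tested. The 3 genes of p35 had a median of -1.53, and the 6 genes of p34 a median of -1.10, all lower. In p32, 5 of 6 genes were lower, and the 2 tested had a median of -0.83. No placed table gene lay in p33, which has 28 annotated protein-coding genes. The 32 protein-coding genes described are 4.30% of the 745 that GENCODE 29 lists in the interval, with the table genes left undescribed not counted. Over the other 19206 protein-coding genes 4.22% were in the table, in either direction.

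**Figure D1:**
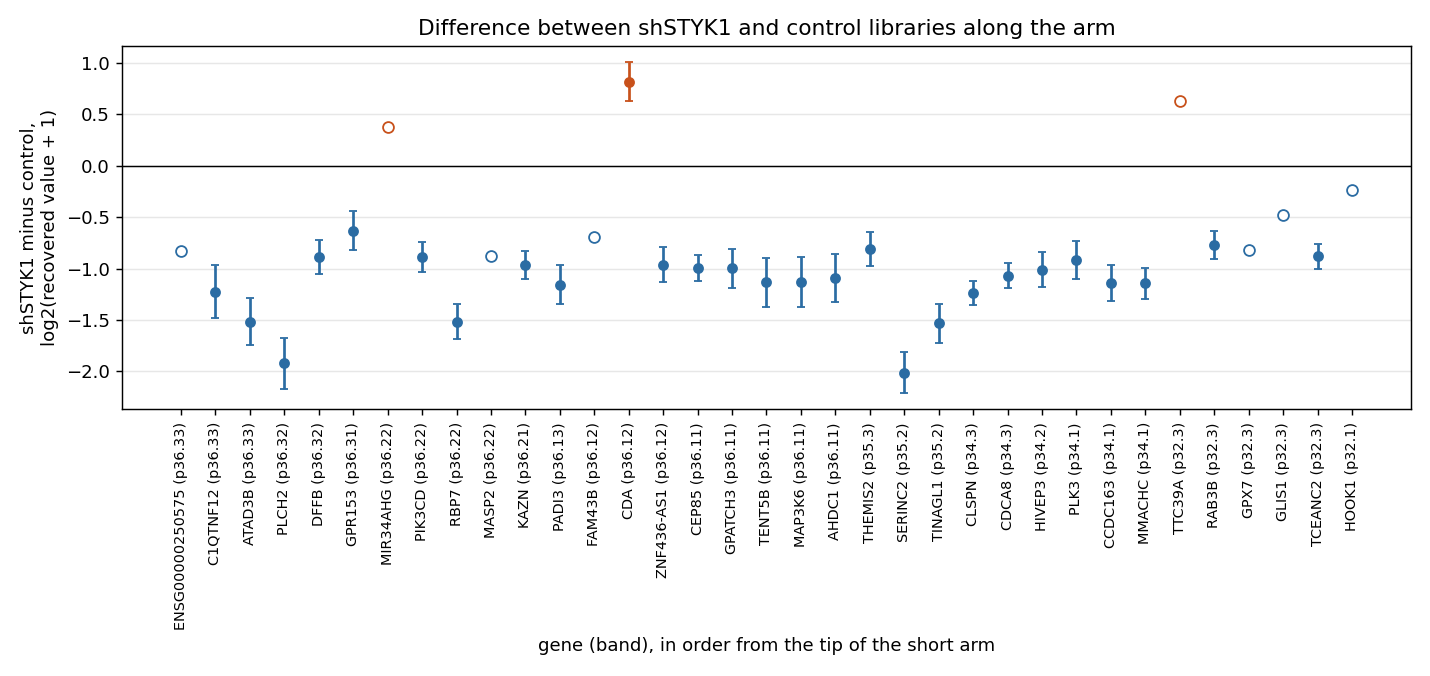
The difference between shSTYK1 and control on the log2(recovered value + 1) scale is plotted for each gene in order from the tip of the arm, filled with the limma standard error for the 27 tested genes and open for the 8 below the filter. Blue marks lower and orange higher genes. SERINC2 at -2.01 and PLCH2 at -1.92 lie lowest, and CDA at 0.82 lies highest.

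The genes of cell division and DNA damage were lower throughout, 5 of 5. CDCA8 (ENSG00000134690, chr1:37692418-37709719, p34.3) encodes borealin, a subunit of the chromosomal passenger complex that guides chromosome segregation. Its recovered values were 76.97, 85.12 and 72.83 in the control libraries and 35.01, 38.77 and 36.38 after knockdown, a log2 fold change of -1.07 (standard error 0.12). The replicates of each group lay close together, and the gap between the groups was several times their spread.

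CLSPN (ENSG00000092853, chr1:35720218-35769967, p34.3) encodes claspin, the adaptor through which the replication checkpoint activates the kinase CHK1. It was at 26.9, 26.8 and 26.3 in the control libraries, against 11.2, 9.81 and 11.2 in those of shSTYK1 cells (log2 fold change -1.24, standard error 0.12). Its 3 control libraries were nearly identical. PLK3 (ENSG00000173846, chr1:44800225-44805990, p34.1), a polo-like kinase of the stress response, was at 4.00, 5.61 and 5.16 in the control libraries, against 2.96, 1.67 and 1.88 in those of shSTYK1 cells (log2 fold change -0.91, standard error 0.19). Replicate 1 was the lowest control library and the highest shSTYK1 library, and the groups did not overlap. TCTEX1D4 overlaps the gene on the other strand.

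DFFB (ENSG00000169598, chr1:3857267-3885429, p36.32) encodes the nuclease that cuts chromosomal DNA in apoptosis. It was at 4.74, 3.91 and 3.04 in the control libraries, against 1.63, 1.95 and 1.34 in those of shSTYK1 cells (log2 fold change -0.88, standard error 0.17). CEP85, a centrosomal protein gene in p36.11, was at 40.12, 43.33 and 37.88 in control libraries and at 21.44, 19.47 and 18.56 after knockdown. The groups stood well apart with little spread, and the control mean was 2.04-fold the shSTYK1 mean, the smallest fold among the 28 lower genes.

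Genes of metabolism and membrane transport were lower in 5 of 6, with CDA, described below, higher. They included the tested gene with the largest difference on the log2(value + 1) scale. SERINC2 (ENSG00000168528, chr1:31409565-31434680, p35.2) belongs to a family of membrane proteins named for the incorporation of serine into lipids. Its values were 36.07, 38.77 and 27.20 in the control libraries, against 6.44, 9.88 and 6.83 in those of shSTYK1 cells (log2 fold change -2.01, standard error 0.20). Every control library was more than 2-fold above every shSTYK1 library. The rank was narrow, since PLCH2 lay lower than SERINC2 with a pseudocount of 0.1 (-2.19 against -2.14) and without control replicate 1 (-2.01 against -1.96).

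RBP7 (ENSG00000162444, chr1:9997206-10016020, p36.22) encodes a cellular retinol-binding protein. It was at 11.82, 9.98 and 13.01 in the control libraries, against 3.71, 3.99 and 2.58 in those of shSTYK1 cells (log2 fold change -1.52, standard error 0.17). ATAD3B (ENSG00000160072, chr1:1471769-1497848, p36.33) encodes an ATPase of the mitochondrial inner membrane. It was at 36.31, 58.27 and 37.25 in the control libraries, against 13.36, 18.34 and 12.02 in those of shSTYK1 cells (log2 fold change -1.52, standard error 0.23), and its value is uncertain because reads can be shared with the near-identical neighbouring paralogs ATAD3A and ATAD3C.

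MMACHC (ENSG00000132763, chr1:45500053-45513382, p34.1), whose product processes vitamin B12 in the cell, and CCDC163 (ENSG00000280670, chr1:45493866-45500079, p34.1), a gene of a little-described coiled-coil protein, are head-to-head neighbours on opposite strands. MMACHC was at 6.01, 6.98 and 5.04 in the control libraries, against 2.32, 1.79 and 2.38 in those of shSTYK1 cells (log2 fold change -1.14, standard error 0.15). CCDC163 was at 3.28, 3.64 and 2.96 in the control libraries, against 0.54, 1.31 and 1.07 in those of shSTYK1 cells (log2 fold change -1.14, standard error 0.17). The differences of the pair lay within the standard error of each other, and control replicate 2 was the highest library in both. The annotated genes overlap, and PRDX1 also overlaps MMACHC on the other strand. The sources used here do not say whether reads were assigned by strand. GPX7, a peroxidase of the endoplasmic reticulum in p32.3, was at 1.01, 0.73 and 0.73 in control, and was recovered at 0, 0.10 and 0 in shSTYK1 libraries.

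The signalling and vesicle traffic genes were lower in 7 of 7. PLCH2 (ENSG00000149527, chr1:2425980-2505530, p36.32), a phospholipase C of the eta type that cleaves the membrane lipid PIP2, was at 12.8, 22.1 and 11.1 in the control libraries, against 2.61, 3.92 and 2.98 in those of shSTYK1 cells. Its log2 fold change was -1.92 with a standard error of 0.25. Control replicate 2 stood well above the other control libraries, the groups did not overlap, and annotated antisense genes overlap the gene. The other members were PIK3CD (the p110δ catalytic subunit of PI3-kinase), MAP3K6 (a stress-activated kinase), GPR153 (an orphan receptor), THEMIS2 (an adaptor known from B cells), RAB3B (a GTPase of secretory vesicles) and HOOK1 (a linker of cargo to dynein). PIK3CD, in p36.22, was at 4.09, 5.25 and 4.67 in control libraries and at 2.46, 1.68 and 2.08 after knockdown, with no overlap, and CLSTN1 and antisense genes overlap it on the other strand. The 6 of the group that were tested had log2 fold changes from -1.92 to -0.63.

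Genes of secreted, matrix and epithelial proteins were lower in 5 of 5. TINAGL1 (ENSG00000142910, chr1:31576485-31587686, p35.2) encodes a matricellular protein of basement membranes. It was at 17.5, 20.6 and 12.9 in the control libraries, against 5.04, 6.11 and 4.37 in those of shSTYK1 cells (log2 fold change -1.53, standard error 0.19). It lies next to SERINC2 among the genes described, 142 kb away, and in both genes control replicate 3 was the lowest control library.

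C1QTNF12 (ENSG00000184163, chr1:1242446-1246722, p36.33) encodes adipolin, a secreted regulator of glucose metabolism. It was at 25.6, 42.0 and 21.9 in the control libraries, against 10.3, 15.0 and 10.5 in those of shSTYK1 cells (log2 fold change -1.22, standard error 0.25). PADI3 (ENSG00000142619, chr1:17249098-17284233, p36.13), an enzyme that converts arginine to citrulline in epithelial structural proteins, was at 2.56, 4.16 and 2.24 in the control libraries, against 0.68, 0.92 and 0.67 in those of shSTYK1 cells (log2 fold change -1.16, standard error 0.19). In both genes control replicate 2 was the highest control library and replicate 2 the highest shSTYK1 library. KAZN (kazrin, a partner of desmosomal plakins) and MASP2 (a protease of the lectin pathway of complement) completed the group. KAZN, in p36.21, was at 2.65, 3.47 and 2.53 in control libraries and at 0.95, 1.06 and 0.93 after knockdown, so that its shSTYK1 libraries lay closer together than its control libraries. MASP2, below the filter, had the largest fold between group means among the 28 lower genes with no library at 0, at 7.52-fold, with 0.97, 1.33 and 1.01 in the control libraries, against 0.04, 0.22 and 0.18 in those of shSTYK1 cells.

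Genes of transcription and RNA were lower in 6 of 6, and the 5 tested had log2 fold changes from -1.13 to -0.88. They were HIVEP3 (a zinc finger protein that binds κB motifs), AHDC1 (an AT-hook protein), GPATCH3 (a G-patch protein, overlapped by NUDC on the other strand), TENT5B (a poly(A) polymerase), TCEANC2 (a protein with a domain of the elongation factor TFIIS) and GLIS1. HIVEP3, in p34.2, was at 4.37, 2.80 and 4.51 in control libraries and at 1.38, 1.55 and 1.27 after knockdown, with control replicate 2 the lowest control library. GLIS1, a Krüppel-like zinc finger gene, was at 0.31, 0.61 and 0.28 in control libraries. It was recovered at 0 in all 3 shSTYK1 libraries, the only member of the 35 for which this holds. Of the 6 noncoding or little-described genes, ZNF436-AS1 and CCDC163 were tested and lower, and FAM43B and the pseudogene ENSG00000250575 were lower below the filter. The lowest control library of ENSG00000250575, at 0.53, was close to its highest shSTYK1 library, at 0.48, and reads of this pseudogene can be shared with its copies.

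The 3 higher genes were those of a deaminase, a microRNA host transcript and a little-described repeat protein. CDA (ENSG00000158825, chr1:20588948-20618908, p36.12) encodes cytidine deaminase, the enzyme that inactivates the pancreatic cancer drug gemcitabine. It was at 4.51, 4.97 and 6.0 in the control libraries, against 7.47, 12.3 and 10.2 in those of shSTYK1 cells (log2 fold change 0.82, standard error 0.19). Every shSTYK1 library was above every control library, and the shSTYK1 libraries varied more than the control libraries. It was at 0.46, and not past the threshold, once the libraries were rescaled by the median of ratios. That rescaling takes most genes as unchanged, which a list of changed genes does not meet. The nearest neighbour of CDA among the genes described, FAM43B, lies on the same strand with 33.9 kb between them and was lower. FAM43B was at 1.03, 0.56 and 0.42 in control and was recovered at 0, 0 and 0.06 in shSTYK1 libraries.

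MIR34AHG (ENSG00000228526, chr1:9148011-9198906, p36.22), the noncoding host transcript of the microRNA shown above, was at 0.26, 0.52 and 0.31 in the control libraries, against 0.72, 0.70 and 0.90 in those of shSTYK1 cells, a difference of 0.38. All of its values were below 1, and the gene is overlapped by LNCTAM34A on the other strand. TTC39A (ENSG00000085831, chr1:51287258-51345116, p32.3), a tetratricopeptide repeat gene, was at 0.28, 0.52 and 0.35 in the control libraries, against 0.97, 1.35 and 1.09 in those of shSTYK1 cells, a difference of 0.63. Both were below the filter and were not tested in the filtered table. With no filter, both were called higher with CDA.

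Of 34 candidate tumour suppressor genes of the interval, 3 were among the 995 genes of the table. DFFB and PLK3 were lower, and MIR34AHG was higher. The other 31 include ARID1A, a subunit of the SWI/SNF chromatin remodeller, the chromatin helicase CHD5, the p53 relative TP73, the transcription factor RUNX3, the kinesin KIF1B, the succinate dehydrogenase subunit SDHB, the repair glycosylase MUTYH, the cell cycle inhibitor CDKN2C, the receptor EPHA2, CAMTA1 and ERRFI1. They are not in the table, which appears to hold genes changed between the groups. Their level in these cells and the size of any difference are not known from the table. Of a list of 16 proliferation genes of the interval, which does not hold CLSPN or CEP85, CDCA8 and PLK3 were in the table and both were lower. Of 10 p53 target genes, PLK3 was lower and MIR34AHG was higher. None of 12 Wnt pathway genes of the interval was in the table, among them WNT4, DVL1, RSPO1 and CTNNBIP1, which encodes an inhibitor of β-catenin. The same holds for 2 interferon-induced genes, 7 TNF receptor genes, 4 ephrin receptor genes and 5 connexin genes.

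The limit of the interval fell in a gap between table genes. Just inside it, TCEANC2 (ENSG00000116205, chr1:54053584-54112519) was at 3.96, 3.31 and 3.47 in the control libraries, against 1.59, 1.35 and 1.52 in those of shSTYK1 cells. HOOK1 (ENSG00000134709, chr1:59814786-59876378), also inside, was at 0.19, 0.25 and 0.16 in control and was recovered at 0.02, 0 and 0.03 in shSTYK1 libraries. Just outside it, AK4, a mitochondrial adenylate kinase, was higher, at 9.61, 11.01 and 9.77 in the control libraries, against 19.2, 18.4 and 19.9 in those of shSTYK1 cells. PDE4B, a cyclic AMP phosphodiesterase, was lower, at 1.41, 1.10 and 1.82 in the control libraries, against 0.14, 0.43 and 0.22 in those of shSTYK1 cells.

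Beyond the limit, the 17 table genes of the rest of the short arm were lower in 6 and higher in 11, with a median log2 fold change of 0.64 in 13 tested genes. On the long arm of chromosome 1, 17 of 33 genes were lower and 16 higher, with a median of 0.78 in 20 tested genes. On the long arm of chromosome 3, 6 of 72 were lower and 66 higher, with a median of 0.98 in 69 tested genes. The 810 genes placed elsewhere were lower in 421 and higher in 389, with a median of 0.39 in 593 tested genes. The long arm of chromosome 3 had also been picked in an earlier reading of these same libraries, so it is not a neutral comparison. The remaining arms are pooled. The arms were not tested against each other.

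**Figure D2:**
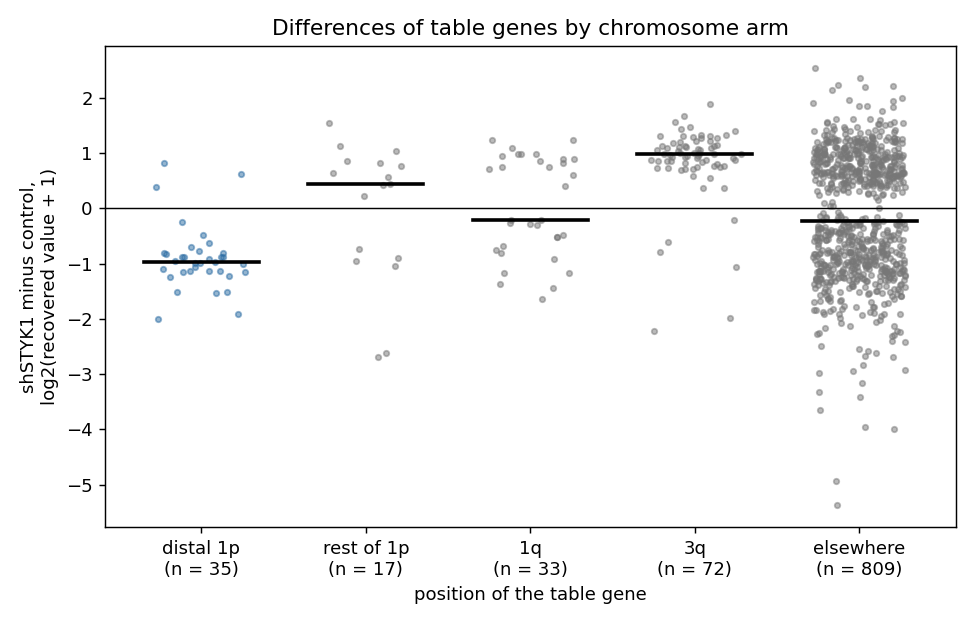
Each point is 1 table gene, with its difference between shSTYK1 and control on the log2(recovered value + 1) scale on the vertical axis, grouped by position. The long arm of chromosome 3 had also been picked in an earlier reading of these libraries, and the remaining arms are pooled as elsewhere. Black lines are medians over all genes drawn, tested or not, which lie at -0.96 for the distal short arm of chromosome 1, 0.45 for its rest, -0.21 for the long arm, 0.98 for the long arm of chromosome 3 and -0.24 elsewhere.

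The libraries of a group did not stand level for these genes. Among the 32 lower genes, control replicate 2 was the highest control library in 21, control replicate 1 in 9 and control replicate 3 in 2, and control replicate 3 was the lowest in 21. Among the other 467 lower genes of the table, wherever they lie, control replicate 2 was highest in 46.0%, control replicate 3 in 32.8% and control replicate 1 in 21.2%. The median z-scores of the 32 genes were 0.97, 1.26 and 0.69 in control replicates 1, 2 and 3, and -0.99, -0.76 and -1.01 in the shSTYK1 replicates. Within the shSTYK1 group, replicate 2 was highest in 20 of the 32 and replicates 1 and 3 in 6 each, with GLIS1, at 0 in all 3, counted for replicate 1. Among the other 467 lower genes replicate 1 was highest in 40.9%, replicate 2 in 32.5% and replicate 3 in 26.6%. Ties may be counted for replicate 1 there too, since 92 of the 467 genes had a library at 0 or no value. These shares are therefore not set against those of the 32. The part of these library differences in the result was not tested. Without control replicate 2 the median log2 fold change of the 27 tested genes was -0.95, and without control replicate 3 it was -1.18.

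**Figure D3:**
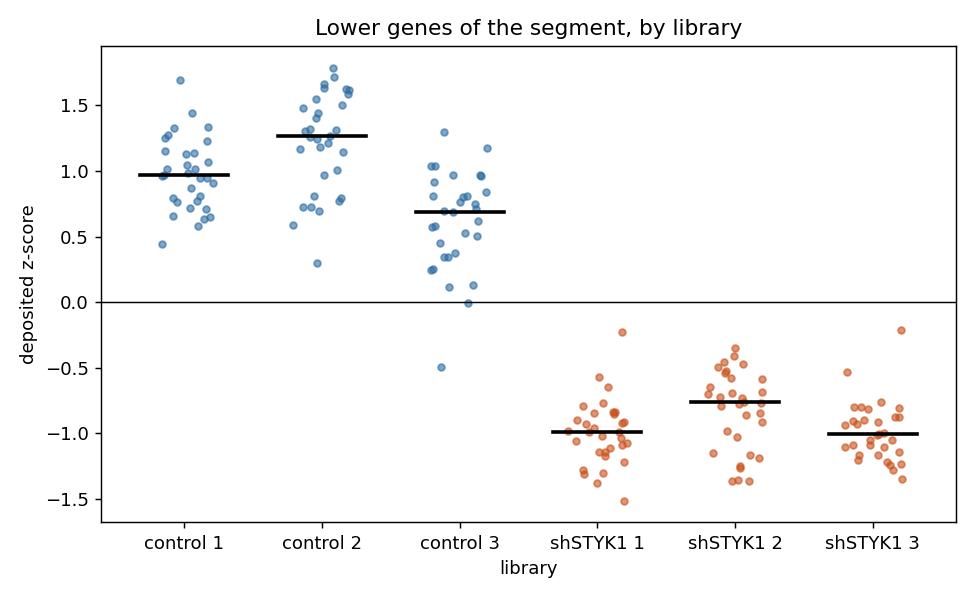
The deposited z-scores of the 32 lower genes are plotted by library, with 1 point per gene and a black line at the median. All 6 medians lie on the side of their group, from 0.69 to 1.26 in control and from -1.01 to -0.76 in shSTYK1, and control replicate 2 lies highest.

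RefSeq promoters (GRCh38.p14), 250 bases before to 50 after the start, were found for 30 of the 35 genes. Their median GC content was 67.2%, against 64.7% in the other table genes, 63.3% in all promoters of the interval and 58.3% in all 27305 promoters. The letters CTTTGAT or CTTTGTT, a core of the TCF/LEF sites through which β-catenin acts, were searched on both strands (ATCAAAG or AACAAAG on the other) and found in 3 of the 30 (10%), against 4.36% of the promoters of the interval, 4.55% of those of the other table genes and 7.71% of all promoters. The letters TGACTCA or TGAGTCA, which are each other's reverse complement and the core of AP-1 sites, were found in 4 (13.3%), against 4.57%, 4.55% and 4.92% of the promoters of the interval, the other table genes and the whole set. With so few matches these shares are a description and were not tested. The gene of the AP-1 subunit JUN lies in the interval and is not a table gene. The 30 bases around each match are given in the direction of the gene to show how differently the matches are placed, with the match in capitals.
PIK3CD, TCF/LEF, chr1:9651641-9651670, plus strand: agtgaaaaggaAACAAAGtgggaagtggag
MASP2, TCF/LEF, chr1:11047249-11047278, minus strand: tggacaaacagATCAAAGgtgagaccagcg
RAB3B, TCF/LEF, chr1:51990904-51990933, minus strand: gctacattatcATCAAAGctctctaattac
RAB3B, AP-1, chr1:51990801-51990830, minus strand: cctggaggtccTGAGTCAcctcggattaca
TENT5B, AP-1, chr1:27012965-27012994, minus strand: ctagagaacagTGACTCAcgtgcaaagctc
CCDC163, AP-1, chr1:45500249-45500278, minus strand: ccgttacgtttTGAGTCAgcttcgactcca
MMACHC, AP-1, chr1:45500250-45500279, plus strand: ggagtcgaagcTGACTCAaaacgtaacggc
The matches of CCDC163 and MMACHC are 1 place read on both strands, so the 4 AP-1 matches are 3 places. The matches begin from 28 bases (MASP2) to 222 bases (RAB3B, TCF/LEF) before the RefSeq start. No promoter of the 3 higher genes held either motif. A match is a description of letters, and binding was not measured.

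The markers of the labelled cell type could be checked only in part. Of 8 epithelial and ductal carcinoma markers, CDH1 (E-cadherin) is in the table, at 0.10, 0.27 and 0.28 in the control libraries, against 0.94, 0.85 and 0.90 in those of shSTYK1 cells, and the keratin genes KRT7, KRT8, KRT18 and KRT19 and EPCAM, MUC1 and SOX9 are not. Of 11 markers of fibroblasts, endothelial and immune cells, COL1A1, a collagen gene of fibroblasts, is in the table, at 26.7, 42.2 and 22.2 in the control libraries, against 3.12, 3.73 and 2.94 in those of shSTYK1 cells. The part of these markers in the values of the 35 genes was not tested.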

How the data were processed

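Libraries were made from oligo(dT)-purified RNA, 3 of control and 3 of shSTYK1 cells. The submitters' processing notes name RSEM, DESeq2 and the build GRCh38 (hg38), with no role or version. The authors deposited a score per gene and library, a z-score over the 6 libraries, for 995 selected genes. By their number these appear to be the genes the study reports as changed after STYK1 depletion. The unit before scaling and the depth per library are not given in the sources used here, so no depth-based interval was computed.

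Values with 2 decimals were recovered by a search for whole numbers 100 × (value + 1) whose logarithms give the deposited z-scores (Python 3.11.15, numpy 2.4.6, numba 0.67.0). It solved 994 genes, with recomputed z-scores within 5.00e-12. The values of a gene are the smallest solution, so a common factor in value + 1 stays unknown, which leaves log2 differences of value + 1 unchanged but not the folds. The search and the model were tested on simulated data. The limma 3.58.1 functions lmFit and eBayes (R 4.3.3) compared the groups on log2(value + 1). Genes with 3 or more libraries at 1 or more were tested, with Benjamini-Hochberg adjustment over 740 genes. Within a list of genes already selected for a change, the adjusted p-values do not control the share of false calls. Positions are from GENCODE 29 for 965 genes and from RefSeq for 7, and 23 genes were not placed. Bands follow GRCh38 band limits. Plots were drawn with matplotlib 3.10.9 and tables with pandas 2.3.3.

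Named genes were those on a list, the 10 largest falls and 5 largest rises among tested genes (1 rose), every higher gene, and the 2 genes on each side of the limit. Others were named by function and band, and a few of these with values after the values were seen. The genes, the lists and the motifs were chosen with earlier results of these data known. Alternatives were another pseudocount, other filters, other scalings, each library left out, a replicate block, the z-scores themselves and other limits of the interval.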

Additional observations from a re-analysis of the deposited data

How the results depend on the processing

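Under the scalings and with each library left out, 32 genes were lower and 3 higher, as reported. With a limit of 50 Mb they were 27 and 2, and with 70 Mb 33 and 4. Leaving out 1 library at a time put the median log2 fold change, -1.07, between -1.18 and -0.95. It was -1.28 with a pseudocount of 0.1, where the median of all genes was 0.82. It was -1.36 after rescaling by the median of ratios, which moved the median of all genes from 0.54 to 0.30. Relative to that median it changed from -1.62 to -1.66. The rescaling takes most genes as unchanged, so it is a weak check within a list of changed genes. The 26 genes called lower became 14 of 15 with a filter of at least 5, since fewer genes were tested. The 1 gene called higher became 0 after rescaling by the median of ratios, 3 with no filter and 3 in the deposited z-scores, where all 35 genes are tested, and 2 with a limit of 70 Mb. The 17 named genes that passed the filter, AK4 and PDE4B outside the interval included, gave 198 values under the other pseudocount, filters, scalings, replicate block and left-out libraries, and 197 kept their direction and their side of the threshold. The exception was CDA after rescaling by the median of ratios. MIR34AHG, TTC39A and HOOK1, below the filter, have a fitted value with no filter only, so nothing is said of their stability under the others. With the replicate number as a block the median was -1.07, with 26 genes called lower and 1 higher. The labels give same-numbered libraries a shared number and no shared batch or day. Their deviations from the group means correlated at -0.22, 0.19 and 0.05 over 740 genes, and a shared origin was not tested. Depth is unknown. The smallest p that an exact two-sided permutation test allows for 1 gene here is 0.1.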
